A study of Mus musculus with 6 samples.

Results

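The 10 genes of the BCL2 family described here are Bcl2l11, Bid, Bad, Bmf, Hrk, Bax, Bak1, Bcl2, Bcl2l1 and Mcl1. They were taken as a list of names, and their probes were found through the RefSeq accession that the scanner files give for a probe. Only 26300 of 55681 probes could be named in this way, so further probes of these genes may have been missed. This gave 13 probes for the 10 genes, of 19897 genes that could be named in the whole series. Bad, Bcl2l1 and Mcl1 each had 2 probes found in this way and the other 7 genes had 1. All 13 probes passed the filter on dim probes, and 8 of them were well above background on all 6 arrays.

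Proteins of the BCL2 family decide whether the outer membrane of the mitochondrion is opened during apoptosis. The effectors BAX and BAK1 form the pores that release cytochrome c, the survival members BCL2, BCL-XL (the product of Bcl2l1) and MCL1 hold them in check, and the BH3-only initiators BIM (from Bcl2l11), BID, BAD, BMF and HRK either bind the survival members or act on the effectors directly. Developing spinal motor neurons are made in excess and many are removed by apoptosis, and BIM is among the best known targets of the microRNA cluster that the study removed.

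Transcript levels were measured on 1-colour Agilent arrays (Cy3) in sorted cells of the E12.5 mouse spinal cord. All embryos carried the reporter Hb9::GFP, in which a motor neuron promoter drives green fluorescent protein, and were labelled either mir-17~92 -/- (knockout-labelled below) or WT (wild-type-labelled). GFP-on cells, the motor neurons, gave 2 arrays for each genotype label, and GFP-off cells, the GFP-negative cells of the cord, gave 1 array for each. The labels give no strain, and nothing in them says that replicates came from separate embryos, so the p-values measure the spread between these samples, which may be technical. In cell mixtures of this kind a lower signal can mean fewer cells of a type or less RNA in each, and these cannot be told apart.

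The microRNAs of the cluster are shown because they are what the knockout label says was removed. Their mature forms, from RefSeq on build GRCm38.p6, lie on the plus strand of chromosome 14, from miR-17 at chr14:115043684-115043706 to miR-92a at chr14:115044476-115044496. Capitals mark the seed, bases 2 to 8 from the 5′ end, which pairs with target transcripts.
miR-17-5p: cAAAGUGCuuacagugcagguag
miR-20a-5p: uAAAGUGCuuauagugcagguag
miR-18a-5p: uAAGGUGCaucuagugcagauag
miR-19a-3p: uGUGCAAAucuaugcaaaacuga
miR-19b-3p: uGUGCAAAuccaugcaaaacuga
miR-92a-3p: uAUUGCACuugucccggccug
The 6 microRNAs fall into 4 seed groups, with miR-17 and miR-20a sharing AAAGUGC and miR-19a and miR-19b sharing GUGCAAA. No level of a mature microRNA is given here.

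The host transcript of the cluster, Mir17hg, went against the genotype labels. It was at 4.55 and 4.78 in the knockout-labelled motor neurons, -2.38 and 2.73 in the wild-type-labelled ones, 4.62 in the knockout-labelled GFP-off cells and -1.23 in the wild-type-labelled GFP-off cells (log2 signal relative to the array's 75th percentile, the scale used for every level below). Where its probe lies relative to the deleted part is not known here, so the directions below are directions between labels. The arrays also differed in brightness: the 75th percentile of the signal was 48.5 to 64.5 on knockout-labelled motor neuron array 1 and both wild-type-labelled motor neuron arrays, and 340 to 550 on the other 3. The wild-type-labelled motor neuron arrays correlated with each other at 0.928 and with the other 4 arrays at 0.736 to 0.903, while those 4 correlated at 0.930 to 0.984. Row 1 of the slide held both knockout-labelled motor neuron arrays and row 2 the other 4 arrays, so slide row and genotype label cannot be told apart in motor neurons. Of the motor neuron markers, 8 of 9 had a probe named through its accession, and Mnx1, the gene of the reporter, did not. The summed linear level of these 8 was 33.5 and 39.9 in knockout-labelled motor neurons and 12.0 and 8.14 in wild-type-labelled ones. It was 5.19 and 3.42 in the GFP-off cells. Chat, Lhx3, Lhx4 and Slc18a3 were higher in motor neurons than in GFP-off cells and did not pass the test between labels. Isl1, Isl2, Prph and Slc5a7 were higher with the knockout label. Prph, at 3.97 and 4.04 against 0.11 and -0.99, weighed most in the knockout-labelled sums. The Slc5a7 probe that passed was not well above background on either wild-type-labelled motor neuron array. Its dimmer probe differed by 0.51 and did not pass. The summed level of 8 red cell markers was 247 to 578 in motor neurons and 1387 and 1515 in GFP-off cells.

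In motor neurons 2 of the 10 genes, the initiators Bid and Hrk, were higher in the knockout-labelled than in the wild-type-labelled arrays and none was lower (limma, adjusted p under 0.05). The dimmer of the 2 Mcl1 probes was higher as well. In this comparison 21.6% of all genes were called through their brightest probe (15.0% higher and 6.57% lower), and 24.8% of all probes were called (10.6% higher and 14.2% lower), so 2 of 10 lies near the share of genes at large. Between motor neurons and GFP-off cells none of the 10 genes was called, against 1.11% of genes (0.791% higher and 0.315% lower in motor neurons) and 0.854% of probes (0.649% and 0.204%). At an unadjusted p under 0.05 the second comparison held 2 of the 10, Bcl2 (lower in motor neurons) and Hrk (higher), against 20.4% of all genes.

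**Figure D1:**
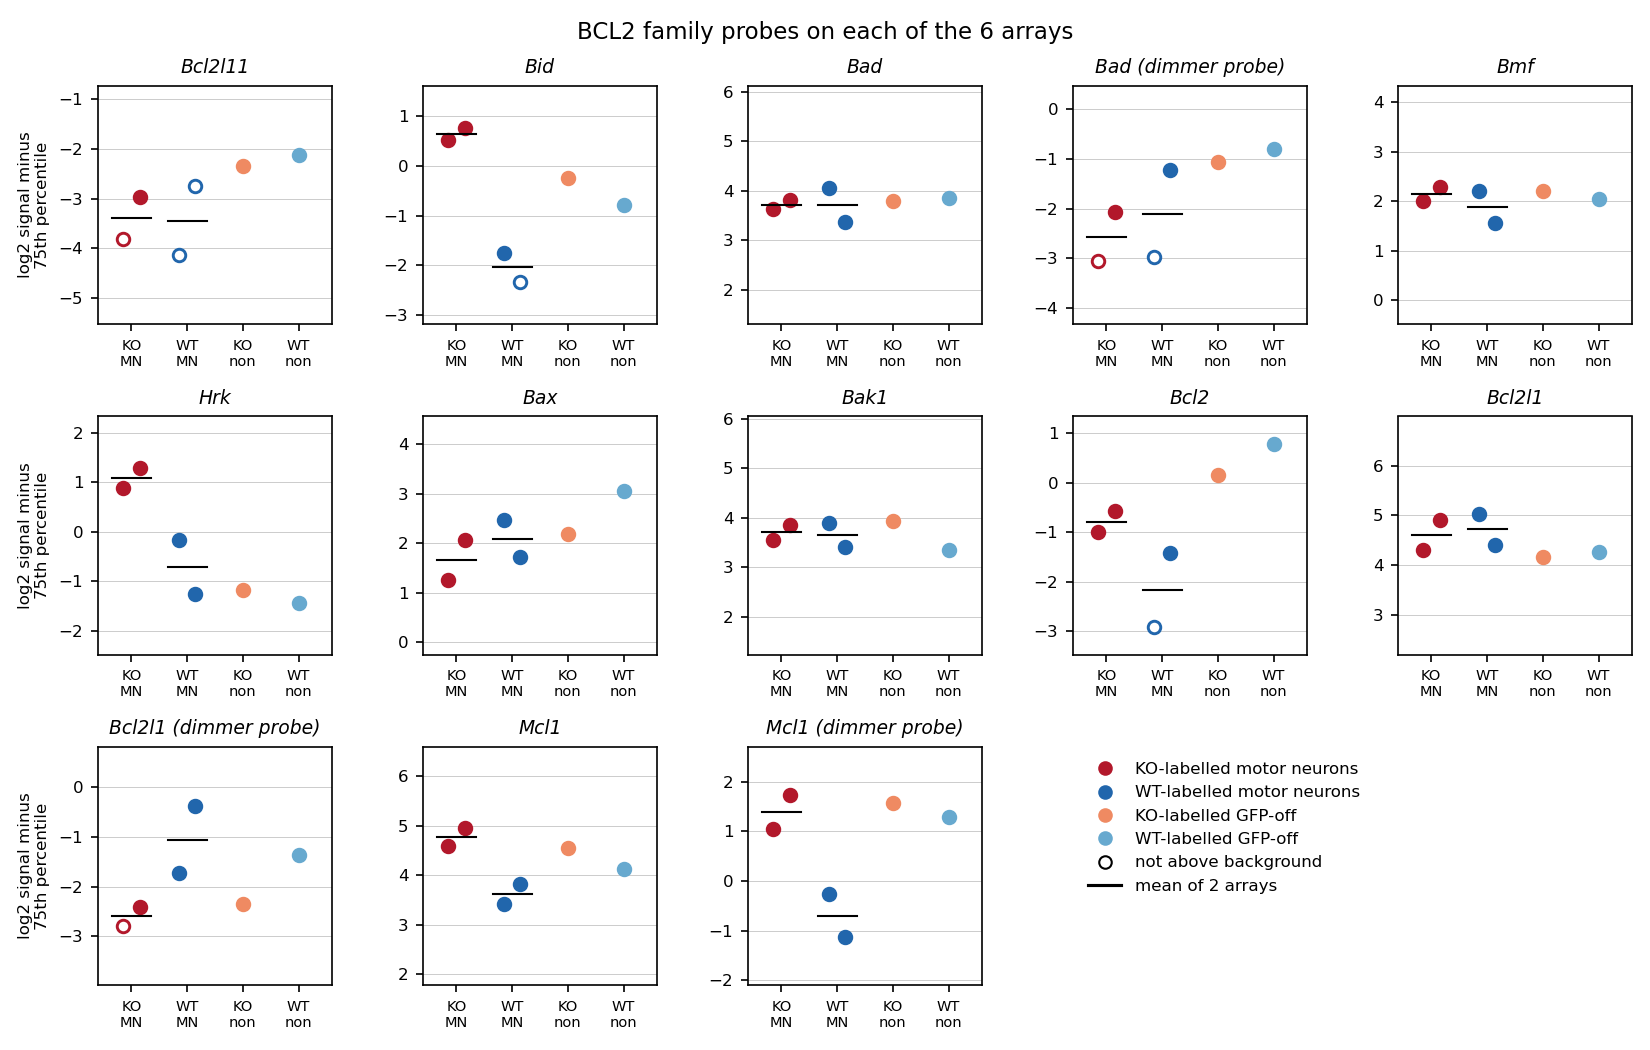
Level of each of the 13 probes on each array, as log2 signal minus the array's 75th percentile, with the same span on every vertical axis. Open circles were not well above background and black lines are means of 2 arrays. Bid, Hrk, Bcl2 and both Mcl1 probes (higher with the knockout label) and the dimmer Bcl2l1 probe (lower) separate the labels in motor neurons. So do 69.5% of all probes. Bak1, Bmf and the brighter Bad probe stay within 0.75 log2 over all 6 arrays.

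Among the initiators, Bid showed the largest difference. Bid, which carries death receptor signals to the mitochondrion once caspase 8 has cut it, was at 0.53 and 0.77 in the knockout-labelled motor neurons and at -1.75 and -2.35 in the wild-type-labelled ones (probe A_52_P574653). The GFP-off cells lay between these groups, at -0.25 with the knockout label and -0.79 with the wild-type label. No wild-type-labelled motor neuron array reached any other array, and the second of them was not well above background, so the size of the difference is approximate. Bid was 2.70 ± 0.53 log2 higher with the knockout label (SE, n = 2 against 2, 95% confidence interval 1.51 to 3.88), 6.49-fold, with a limma adjusted p of 0.0136. It was higher in all 15 alternative analyses and past the threshold in 10 of them, with adjusted p between 4.34e-05 and 0.9997. The call was lost with normexp background correction (1.12 log2, adjusted p 0.260), with no filter on dim probes (0.153), in an additive model over all 6 arrays (0.0808), with a spike-in covariate (0.9997) and without knockout-labelled array 2 (0.0632).

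Hrk, an initiator known from neurons deprived of trophic support, was at 0.88 and 1.28 in the knockout-labelled motor neurons, -0.16 and -1.25 in the wild-type-labelled ones, and -1.17 and -1.44 in the GFP-off cells with the knockout and wild-type label (A_55_P2083559). The knockout-labelled motor neurons were above every other array, and wild-type-labelled array 2 fell among the GFP-off cells. The difference between the labels in motor neurons was 1.79 ± 0.57 log2 (SE, n = 2 against 2, interval 0.50 to 3.08), 3.46-fold, with a limma adjusted p of 0.0485. Hrk was higher in all 16 alternatives and past the threshold in 7, with adjusted p between 0.00308 and 0.9997. The call was lost when the percentile was taken over spots (0.0614), with quantile normalization (0.102), normexp (0.261), no filter (0.213), the additive model (0.121) and the spike-in covariate (0.9997, at 0.37 log2), and when knockout-labelled array 1 (0.108) or 2 (0.297) or wild-type-labelled array 2 (0.156) was left out.

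The promoters of Bid and Hrk are shown because these are the 2 genes that passed the test. Each run is the 150 bases before the start in the direction of the gene, from RefSeq on build GRCm38.p6, with the GC box letters GGGCGG or, on the other strand, CCGCCC in capitals.
Bid, chr6:120916825-120916974, minus strand: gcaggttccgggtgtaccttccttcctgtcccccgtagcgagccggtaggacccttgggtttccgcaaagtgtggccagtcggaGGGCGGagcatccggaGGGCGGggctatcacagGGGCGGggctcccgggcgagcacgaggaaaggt
Hrk, chr5:118169614-118169763, plus strand: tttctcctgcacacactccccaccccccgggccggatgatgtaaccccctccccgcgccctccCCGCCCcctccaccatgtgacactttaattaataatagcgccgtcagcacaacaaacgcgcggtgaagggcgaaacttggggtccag
The Bid run held the GC box letters 3 times and the Hrk run once. Over the 250 bases before the start, searched on both strands, 8 of the 16 RefSeq promoters of the 10 genes held them, against 32.7% of all 32851 mouse promoters in the table. The letters CCAAT were in 5 of the 16 (33.8% of all promoters), the forkhead letters GTAAACA in 1, at Bcl2l11 (3.17%), and TATAAA (12.4%), TGACGTCA (1.55%), TTTCCCGC (0.895%) and TTTGGCGC (0.417%) in none. The median GC content of the 16 promoters was 60.6%, against 52.4% over all promoters. These matches describe letters and not bound sites.

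Bcl2l11, which encodes BIM, lay near background in motor neurons. Its levels were -3.81 and -2.97 in the knockout-labelled motor neurons, -4.15 and -2.74 in the wild-type-labelled ones, and -2.33 and -2.11 in the GFP-off cells (A_51_P484880). The probe was well above background only on knockout-labelled array 2 and on both GFP-off arrays. The groups of motor neurons overlapped, the difference between labels was 0.05 ± 0.63 log2 (SE, n = 2 against 2, interval -1.37 to 1.48, adjusted p 0.960), and no fold is given because both wild-type-labelled arrays were below background. Relative to the median of all probes the difference was 0.25, and it ran from -0.24 with normexp to 1.02 with quantile normalization. The interval holds more than a 2-fold change in either direction, so no difference was detectable at this signal.

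The brighter Bad probe was nearly level. Bad, an initiator held inactive by survival kinase signalling, was at 3.63 and 3.81 in knockout-labelled motor neurons, 4.07 and 3.36 in wild-type-labelled ones, and 3.80 and 3.86 in GFP-off cells (A_55_P1962234). All groups overlapped, and the difference between labels in motor neurons was 0.0053 ± 0.53 log2 (interval -1.19 to 1.20, adjusted p 0.995). The dimmer probe (A_65_P16603) was at -3.06 and -2.08, then -2.99 and -1.22, then -1.06 and -0.80, in the same order of groups. It was not well above background on the first replicate of either motor neuron group, and the motor neurons lay below the GFP-off cells on all 4 arrays. The probes correlated at -0.27 over the 6 arrays, a description from few points.

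Bmf, an initiator tethered to the cytoskeleton in healthy cells, was at 2.01 and 2.30 in knockout-labelled motor neurons, 2.20 and 1.55 in wild-type-labelled ones, and 2.21 and 2.04 in GFP-off cells (A_55_P2029106). The groups overlapped throughout. The labels differed by 0.28 ± 0.53 log2 in motor neurons (interval -0.92 to 1.47, adjusted p 0.724).

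Neither effector passed the test in any comparison. Bax was at 1.27 and 2.07 in knockout-labelled motor neurons, 2.46 and 1.73 in wild-type-labelled ones, 2.18 in knockout-labelled GFP-off cells and 3.05 in wild-type-labelled GFP-off cells (A_55_P2137406). The motor neuron groups overlapped, and the wild-type-labelled GFP-off array was the highest of the 6. The labels differed by -0.43 ± 0.56 log2 in motor neurons (interval -1.70 to 0.85, adjusted p 0.598). Relative to the median of all probes this was -0.23.
Bak1 was at 3.55 and 3.87 in knockout-labelled motor neurons, 3.90 and 3.40 in wild-type-labelled ones, and 3.93 and 3.36 in the GFP-off cells with the knockout and wild-type label (A_55_P2013113). Its 6 levels spanned 0.58 log2, the narrowest range of the 13 probes. The labels differed by 0.06 ± 0.52 log2 in motor neurons (interval -1.12 to 1.24, adjusted p 0.944).

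Among the survival genes, Bcl2 had the widest range of the 13 probes, 3.69 log2. The level of Bcl2, the founding member of the family, was -1.01 and -0.57 in knockout-labelled motor neurons, -2.91 and -1.42 in wild-type-labelled ones, 0.16 in knockout-labelled GFP-off cells and 0.78 in wild-type-labelled GFP-off cells (A_51_P380013). Every motor neuron array was below both GFP-off arrays, and within motor neurons the wild-type-labelled arrays were the lower ones, the first of them not well above background. The labels differed by 1.38 ± 0.62 log2 in motor neurons (interval -0.02 to 2.78, adjusted p 0.126), short of the threshold. The difference passed when arrays were centred on their medians (2.01 log2, adjusted p 0.0152) and was 0.04 with normexp.

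The 2 probes of Bcl2l1, the gene of BCL-XL, which keeps newly made neurons alive, gave different patterns. The brighter one was at 4.30 and 4.91 in knockout-labelled motor neurons, 5.03 and 4.41 in wild-type-labelled ones, and 4.16 and 4.26 in GFP-off cells (A_55_P1974877). All 4 motor neuron arrays were above both GFP-off arrays, and the labels overlapped (-0.11 ± 0.54 log2 in motor neurons, interval -1.34 to 1.12, adjusted p 0.896). The dimmer probe was at -2.79 and -2.42, -1.73 and -0.38, and -2.35 and -1.36 in the same order (A_52_P510877). Both knockout-labelled motor neuron arrays lay below both wild-type-labelled ones, with a difference of -1.55 ± 0.60 log2 (interval -2.90 to -0.19, adjusted p 0.0853), and on this probe knockout-labelled array 1 was not well above background. Without wild-type-labelled array 1 it passed the threshold (-2.22 log2, adjusted p 0.0199). The probes correlated at -0.04 over the 6 arrays.

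Mcl1, a short-lived survival protein needed in neural progenitors and young neurons, was higher with the knockout label on both probes, and passed the test on the dimmer one. The brighter probe was at 4.60 and 4.95 in knockout-labelled motor neurons, 3.42 and 3.83 in wild-type-labelled ones, 4.56 in knockout-labelled GFP-off cells and 4.13 in wild-type-labelled GFP-off cells (A_51_P238786). The dimmer one was at 1.04 and 1.74, -0.25 and -1.14, and 1.58 and 1.28 in the same order (A_52_P93933), well above background on all 6 arrays. On both, the wild-type-labelled motor neuron arrays were the lowest of the 6. The labels differed by 1.15 ± 0.52 log2 on the brighter probe (interval -0.02 to 2.32, adjusted p 0.127; 1.78 and 0.0310 with arrays centred on their medians) and by 2.09 ± 0.57 on the dimmer (interval 0.81 to 3.37, adjusted p 0.0307, 4.26-fold). The dimmer probe was higher in all 15 alternatives and past the threshold in 8, with adjusted p between 0.00086 and 0.9997. The call was lost with quantile normalization (0.0767), normexp (0.234), no filter (0.188), the additive model (0.0986) and the spike-in covariate (0.9997, at 0.37 log2), and without knockout-labelled array 2 (0.244) or wild-type-labelled array 2 (0.0990). The 2 probes correlated at 0.81 over the 6 arrays.

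**Figure D2:**
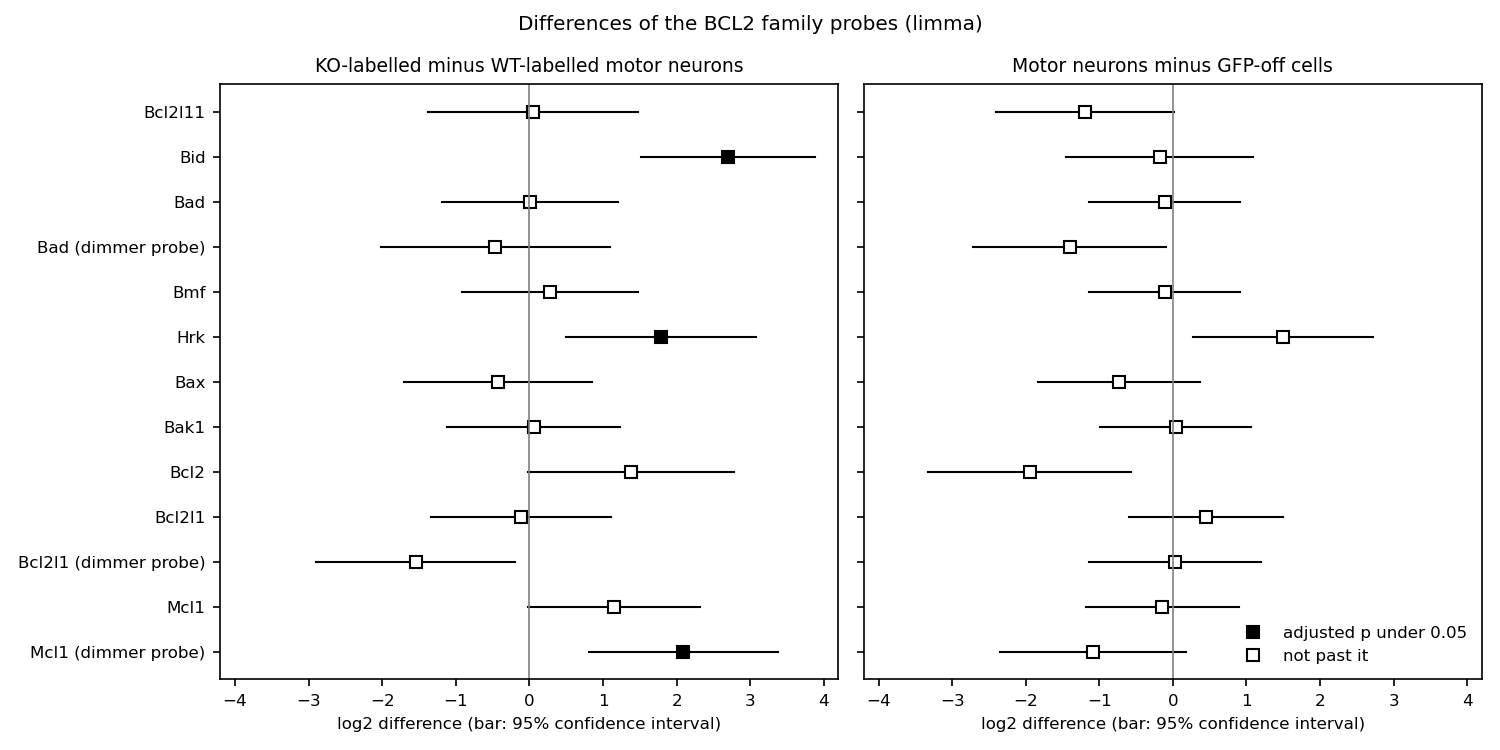
Log2 differences of the 13 probes with 95% confidence intervals, knockout-labelled minus wild-type-labelled motor neurons on the left and motor neurons minus GFP-off cells on the right. Filled squares (Bid, Hrk and the dimmer Mcl1 probe, all on the left) had a limma adjusted p under 0.05; no probe had one on the right, where Bcl2 was lowest at -1.94 and Hrk highest at 1.49.

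By role, 2 of the 5 initiators were called and 0 of the 2 effectors and 0 of the 3 survival genes through their brightest probes, and at an unadjusted p under 0.05 the effectors and survival genes also gave 0. Among all genes 21.6% were called and 36.1% had an unadjusted p under 0.05. The median difference over the 10 genes was 0.17 log2, against 0.34 over all genes and -0.20 over all probes. The levels of the 2 motor neuron groups did not overlap on 6 of the 13 probes, 5 higher with the knockout label (Bid, Hrk, Bcl2 and both Mcl1 probes) and 1 lower (the dimmer Bcl2l1 probe), while 69.5% of all probes did not overlap. The scale of these differences rests on how the arrays are made comparable. Over all probes the median difference was -0.20 as reported, 0.44 with arrays centred on their medians, 0.05 with quantile normalization, -0.55 with normexp and -0.32 with the percentile over spots. The called probes divided into 3524 higher and 4733 lower as reported, 7282 and 2569 with medians, 1578 and 392 with quantile normalization, and 330 and 203 with normexp. Centring on medians and the percentile over spots move every probe by the same amount, so sign changes under them are shifts of all probes. Bid, Hrk, Bcl2 and both Mcl1 probes were higher, and the dimmer Bcl2l1 probe lower, under all of these scalings, with or without the median of all probes taken off. Relative to that median the dimmer Bad probe stayed below 0 and Bmf above 0, while Bcl2l11, Bax, Bak1 and the brighter Bad and Bcl2l1 probes changed sign with normexp or quantile normalization.

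**Figure D3:**
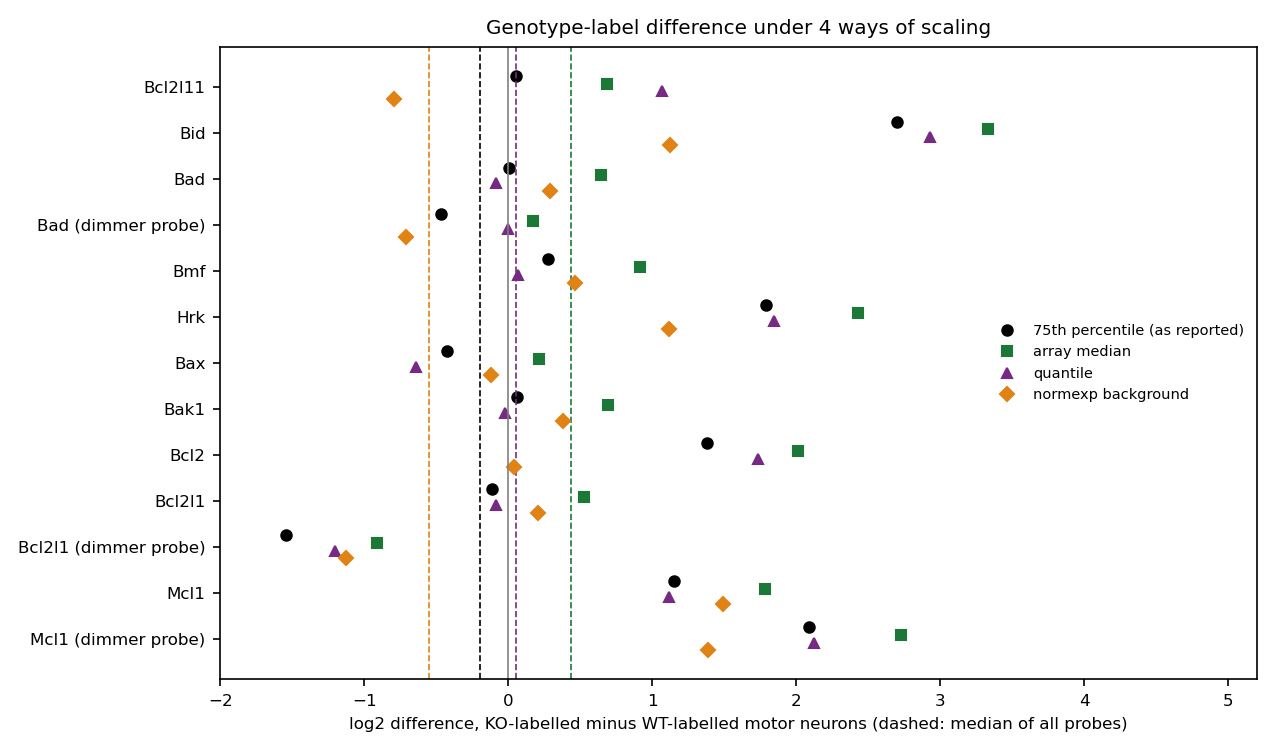
Difference between knockout-labelled and wild-type-labelled motor neurons for each of the 13 probes under 4 ways of scaling the arrays (symbols), with the median of all 33264 probes under each as a dashed line. Bid ranged from 1.12 to 3.33 log2 and Hrk from 1.12 to 2.43, to the right of each scaling's own median.

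Motor neurons were compared with GFP-off cells in a model that also held the genotype label. Bcl2 was -1.94 ± 0.62 log2 in motor neurons relative to GFP-off cells (SE, n = 4 against 2, interval -3.33 to -0.56, unadjusted p 0.0106, limma adjusted p 0.150). Hrk was 1.49 ± 0.55 log2 (interval 0.27 to 2.72, unadjusted p 0.0217, adjusted p 0.195), and its lowest motor neuron level of -1.25 fell between the GFP-off levels of -1.17 and -1.44. Bcl2l11 was at -1.20 ± 0.54 (adjusted p 0.266) and the dimmer Bad probe at -1.40 ± 0.59 (adjusted p 0.240), both with all 4 motor neuron arrays below the GFP-off arrays. These 2 probes were below background on several of the arrays with low signal, which are all motor neuron arrays, and the part of that in the differences was not tested. Bax was at -0.73 ± 0.49 (adjusted p 0.428), the brighter Bcl2l1 probe at 0.45 ± 0.47 (adjusted p 0.613) and the dimmer Mcl1 probe at -1.08 ± 0.57 (adjusted p 0.322). Motor neurons and GFP-off cells did not overlap on 4 of the 13 probes (Bcl2, Bcl2l11 and the dimmer Bad probe lower, the brighter Bcl2l1 probe higher), against 24.3% of all probes. A fit was also restricted to motor neuron array 1 and the GFP-off array of each label, whose descriptions share a tag within the label. The meaning of the tags is not stated. In that fit Bcl2 (-2.43 log2, limma adjusted p 0.0473) and the dimmer Bad probe (-2.09, adjusted p 0.0368) passed the threshold. That fit held 2 motor neuron and 2 GFP-off arrays and left 1 residual degree of freedom. Many more probes passed in it than the 284 of the fit on all arrays, so these calls do not set the members apart. Its count is given with the processing alternatives below. The Bad probe was not well above background on either of these motor neuron arrays, nor was Bcl2 on the wild-type-labelled one.

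Within each label the same differences could be read as values. The motor neuron minus GFP-off difference of Bcl2 was -0.95 log2 with the knockout label and -2.94 with the wild-type label. That of Hrk was 2.26 and 0.73. For Bid it was 0.90 with the knockout label and -1.25 with the wild-type label, and for the dimmer Mcl1 probe -0.19 and -1.98. Thus the order of the groups for Bid was knockout-labelled motor neurons, both GFP-off arrays, then wild-type-labelled motor neurons.

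In GFP-off cells, with 1 array for each label and so no test, the genotype differences spanned a narrower range than in motor neurons. The ranges over all probes were not computed, so this does not set the members apart. The GFP-off arrays correlated at 0.984, and the knockout-labelled with the wild-type-labelled motor neuron arrays at 0.736 to 0.903. Knockout-labelled minus wild-type-labelled values ran from -0.99 log2 (the dimmer Bcl2l1 probe) to 0.58 (Bak1), and none of the 13 probes was past 2-fold, against 8.68% of all probes. Bid was at 0.55, Hrk at 0.26, the Mcl1 probes at 0.43 and 0.30, Bcl2 at -0.62 and Bax at -0.87. The sign was that seen in motor neurons on 10 of the 13 probes and the opposite on 3. Of the 3, Bcl2 had the larger values, 1.38 in motor neurons and -0.62 in GFP-off cells. The share of all probes with the same sign was not computed, so this count does not set the members apart. In motor neurons the differences of Bcl2l11 (0.05), Bak1 (0.06) and the brighter Bad probe (0.0053) were near 0. Whether the genotype difference itself differed between the fractions was tested as an interaction, and 0 of 33264 probes passed (limma; 2807 had an unadjusted p under 0.05, 0% were called). Bid was the 1 gene of the 10 under 0.05 unadjusted, against 8.16% of all genes, at 2.15 ± 0.91 log2 (unadjusted p 0.0421, adjusted p 0.586). The interaction of Bcl2 was 1.99 (unadjusted p 0.0961), of the dimmer Mcl1 probe 1.79 (0.102) and of Hrk 1.53 (0.157).

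**Figure D4:**
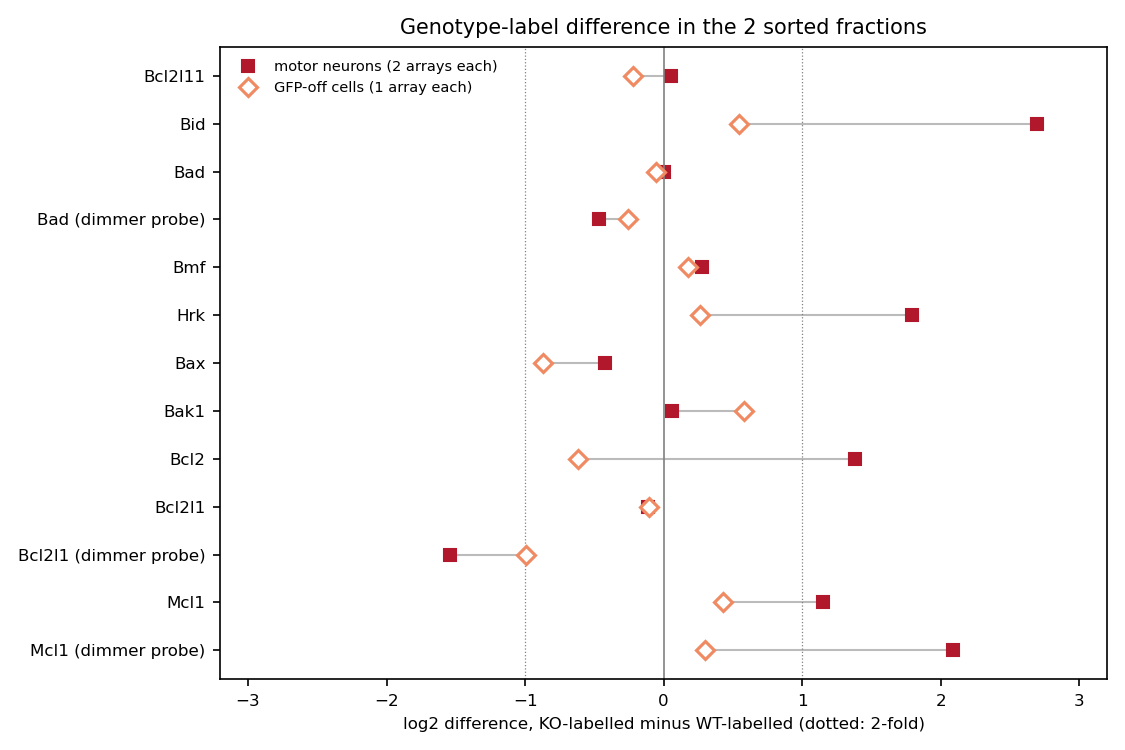
Knockout-labelled minus wild-type-labelled difference (log2) of each of the 13 probes in motor neurons (squares, 2 arrays for each label) and in GFP-off cells (diamonds, 1 array for each label), with dotted lines at a 2-fold change. All diamonds lie between the dotted lines; Bid, Hrk, Bcl2, the dimmer Bcl2l1 probe and both Mcl1 probes have squares beyond them.

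Other genes of the death pathway were counted from lists of names, and their counts stand against 15.0% of all genes called higher and 6.57% called lower in knockout-labelled motor neurons. Of 16 further BCL2 family and related genes, 10 were tested, and 2 were higher and 0 lower in knockout-labelled motor neurons. These were Bnip3 (2.31 ± 0.65 log2, adjusted p 0.0339) and Bnip3l (2.01 ± 0.54, adjusted p 0.0295), relatives known for mitophagy and the response to low oxygen. Bnip3 was at 3.14 and 3.96 against 2.02 and 0.47, its 2 other probes did not pass, and of the 4 Bnip3l probes 2 passed and 2 did not. Of 13 genes of the caspase cascade 4 were higher and 0 lower, among them Casp8, the initiator caspase that cuts BID, the effector caspase Casp6 and the mitochondrial nuclease Endog. Casp8 was at -1.02 and -0.47 in knockout-labelled motor neurons and -4.13 and -3.07 in the wild-type-labelled ones, where neither array was well above background. It was therefore at least 2.75-fold higher, a bound computed from the lowest signal well above background on each dim array (adjusted p 0.0145). Casp6 differed by 2.41 ± 0.54 (adjusted p 0.0184) and Endog by 2.83 ± 0.68 (adjusted p 0.0221), with Endog not well above background on wild-type-labelled array 1. A dimmer Dffa probe, not well above background on either wild-type-labelled array, also passed (1.94 ± 0.54, limma adjusted p 0.0318). The other 2 Dffa probes, at -0.29 and -0.77, did not.

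Inhibitors of apoptosis and their antagonists gave 1 of 8 higher and 0 lower, Diablo, whose product frees caspases from those inhibitors (1.80 ± 0.51, adjusted p 0.0342). Its second, dimmer probe was at 0.50 and did not pass. The dimmer Htra2 probe also passed (2.04 ± 0.51, limma adjusted p 0.0253), while the brighter one, through which Htra2 was counted, was at -0.14. The median differences of these 3 lists, in the order given, were 1.04, 0.93 and 1.12 log2, against 0.34 over all genes. Neither these lists nor a list of 15 upstream regulators had a called gene between motor neurons and GFP-off cells; the largest differences were -0.85 for Bnip3, -1.82 for Casp8 (adjusted p 0.151), -0.97 for the inhibitor Birc2 and 1.59 for the p53 relative Trp63. At an unadjusted p under 0.05 the caspase list held 6 of 13 there, the upstream list 2 of 15 and the other 2 lists 0, against 20.4% of all genes. In the interaction none passed either, and the largest values were 1.998 for Bnip3l, 2.69 for Endog, 1.82 for Birc2 and -1.56 for Trp73. The scaling shifts given above apply to these counts too.

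Markers of other cells moved with the genotype label in motor neurons, and their part in the differences of Bid, Hrk, Mcl1 and the caspases was not tested. Of 10 microglia markers 6 were higher with the knockout label and 0 lower, with a summed linear level of 25.3 to 27.7 against 8.70 to 13.4, and 9 and 10 of them were well above background on the knockout-labelled arrays against 6 on each wild-type-labelled one. Of 8 progenitor markers 2 were higher, with a summed level of 114 to 134 against 34.2 to 65.4, and of 8 motor neuron markers 4 were higher. Red cell markers gave 2 of 8 higher (247 to 578 against 294 to 329) and endothelial markers 2 of 7 higher (8.38 to 14.5 against 16.3 to 115). The endothelial sums of the wild-type-labelled arrays came mostly from 1 Kdr probe, at 3.87 and 6.83 log2 there. A second Kdr probe was at 0.32 and -0.65 on the same arrays. Mesenchyme and neural crest markers gave 0 of 7 and 0 of 6. Between motor neurons and GFP-off cells, 4 of 8 motor neuron and 2 of 6 neural crest markers were higher and 5 of 8 red cell markers lower.

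The genes whose levels over the 6 arrays were most like those of Bcl2l11 were Clk1 (Pearson r 0.9995), Zadh2 (0.994) and Ift20 (0.991), among 10137 genes above background on all arrays. For Bcl2 they were Tmem256 (0.994), Ube2g2 (0.981) and Pcgf1 (0.979). Bcl2l11 was well above background on only 3 of the 6 arrays and Bcl2 on 5, so these likenesses rest in part on signals near background. Each r rests on 6 arrays that differ in brightness and fraction, and it is a description only.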

How the data were processed

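The deposited scanner files give each spot's processed signal as an intensity, background-subtracted per the file headers by Agilent Feature Extraction (version 10.5.1.1 there, 9.1 per the submitters' processing notes), with no scaling between arrays, and flags of other kinds. The authors' deposited values are log2 processed signals minus the array's 75th percentile (100% match within 0.01), uncentred by gene, with column medians of -3.66 to -2.79. The same scale was used here, averaging unflagged spots of a probe. The file headers name mm9; names came from accessions in a RefSeq table of GRCm38.p6 (26300 of 55681 probes), and no coordinates from both were mixed.

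Of 55681 probes, 33264 were well above background on at least 2 of 6 arrays and were tested with limma 3.58.1 (lmFit, eBayes; R 4.3.3), Benjamini-Hochberg adjusted over all of them, threshold 0.05. Both the label contrast in motor neurons and the interaction used 4 group means (2 residual degrees of freedom, all from motor neurons; the single GFP-off arrays were assumed to vary alike), the fraction comparison from an additive model (3). Permuting 2 arrays against 2 exactly allows no p below 0.333 for a probe, so calls rest on spread shared across probes. A gene was counted through its brightest probe. Named were all member probes, per pathway list and comparison up to 3 called genes with the largest difference (or else the largest value), the 3 nearest genes of Bcl2l11 and Bcl2, and Mir17hg; the count of upstream regulators called between the genotype labels is not reported here. The members and lists were chosen with earlier results of these data known. Correlations between replicate 1 minus 2 of the motor neuron groups (-0.10) gave no sign that replicate numbers pair the arrays. The fit was tested on simulated data with independent noise and no differences in brightness between arrays. These arrays do differ in brightness, so that run checked the code and not the calls. The number of arrays limits the precision, and no spot was saturated. Alternatives were other scalings, background correction, filters, models and left-out arrays.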

Additional observations from a re-analysis of the deposited data

How the results depend on the processing

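Counts are of probes past an adjusted p of 0.05 and member values are log2 differences. The probes called between labels with array medians are given in the report. A count of member genes without the number of probes called under its setting cannot be set against the share of genes at large. For results not named below, the direction and the side of the threshold held, apart from the calls of Bid, Bad (dimmer probe), Hrk, Bcl2, Bcl2l1 and Mcl1 given in the report, and the cause of each change was not tested. The sign changes concern differences that passed no test as reported. Array medians and the percentile over spots shift all probes by the same amount in a comparison, so sign changes under them do not set a gene apart.

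For genotype labels in motor neurons (8257 probes and 2 member genes as reported), 4 member genes were called with array medians subtracted, and Bcl2l1 (brighter probe, 0.52), Bax (0.21) and Bad (dimmer, 0.17) turned positive. With the percentile over spots, an alternative chosen after seeing the data, 1 member gene was called, and Bcl2l11 (-0.075), Bad (brighter, -0.12) and Bak1 (-0.068) turned negative. Quantile normalization called 1970 probes and 1 member gene, with Bad (brighter) at -0.084 and Bak1 at -0.025. Normexp called 533 probes and 0 member genes (1 at an unadjusted p under 0.05), with Bcl2l11 at -0.79 and Bcl2l1 (brighter) at 0.20. Without a filter on dim probes limma called 0 of 55669 probes (11502 at an unadjusted p under 0.05) and 0 member genes (2 unadjusted). With only probes above background on all 6 arrays, 1 of 7 member genes was called, since Bid was not among them. With 1 probe per gene, 3434 of 14918 were called. The additive model called 0 probes (11192 unadjusted) and 0 member genes (2 unadjusted), with Bcl2l11 at -0.039 and Bad (brighter) at -0.014. The spike-in covariate left 22 probes and 0 member genes (0 unadjusted), with Bcl2l11 at -0.13, Bad (brighter) at -0.80, Bak1 at -0.78 and Bmf at -0.64. Leaving out 1 motor neuron array at a time gave 2106 to 11994 probes and 0 to 2 member genes, the lowest of both without knockout-labelled array 2. Over these fits Bcl2l11 ran from -0.65 to 0.75, Bad from -0.35 to 0.36 (brighter) and -1.35 to 0.42 (dimmer), Bmf from -0.049 to 0.60, Bak1 from -0.19 to 0.31 and Bcl2l1 (brighter) from -0.43 to 0.20.

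For motor neurons against GFP-off cells (284 probes and 0 member genes as reported), array medians gave 527 probes, with Bcl2l1 (dimmer) at -0.11 and Bak1 at -0.10. Quantile normalization gave 0 probes (5625 unadjusted), no filter 0 (17366 unadjusted) and probes above background on all arrays 836. Normexp gave 57, with Bcl2l11 at 0.61, Bid at 0.38, Bcl2l1 (brighter) at -0.11, Bak1 at -0.43 and Bad (dimmer) at 0.031. The pairs of arrays sharing a description tag within each label gave 2199 probes and 1 member gene (Bcl2), with Bcl2l1 (dimmer) at -0.41 and Bad (brighter) at 0.016. The spike-in covariate gave 2 probes, with Mcl1 at 0.14 (brighter) and 0.43 (dimmer), Bcl2l1 (dimmer) at -0.40, Bid at 0.79, Bad (brighter) at 0.44, Bmf at 0.53 and Bax at 0.55. Leaving out 1 array at a time gave 0 to 1802 probes, with 0 without either wild-type-labelled motor neuron array or the wild-type-labelled GFP-off array. Over these fits Bcl2l1 (dimmer) ran from -0.30 to 0.30, Bak1 from -0.22 to 0.29, Bid from -1.25 to 0.90, Bad (brighter) from -0.26 to 0.041, Bmf from -0.24 to 0.036 and Mcl1 (brighter) from -0.50 to 0.22.

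For the interaction (0 probes as reported), array medians gave 130 probes, with Bcl2l1 (brighter) at 0.37 and Bad (dimmer) at 0.17. Percentile over spots put Bad (brighter) at -0.027, and quantile normalization put Bcl2l1 (brighter) at 0.072, Bmf at -0.013 and Bad (dimmer) at 0.16. Normexp gave 1 probe, with Bcl2l11 at -0.43 and Bcl2l1 (brighter) at 0.25, and probes above background on all arrays gave 1. Leaving out 1 motor neuron array gave 0 to 76 probes. Over these fits Bcl2l1 ran from -0.32 to 0.31 (brighter) and -1.23 to 0.12 (dimmer), Bcl2l11 from -0.43 to 0.97, Bad from -0.29 to 0.41 (brighter) and -1.09 to 0.68 (dimmer) and Bmf from -0.22 to 0.43.

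With the replicate number as a block, 9204 probes and 2 member genes were called between labels in motor neurons. The replicate block gave 1051 probes in the fraction comparison, with Bcl2l1 (dimmer) at -0.41 and Bad (brighter) at 0.016, and 92 in the interaction. Only 2 pairs exist, so the numbers are not shown to pair the arrays. A slide block was not run, since all arrays lay on 1 slide. Signal limits Bcl2l11, Bid, Bcl2 and the dimmer Bad and Bcl2l1 probes, which were not well above background on all 6 arrays.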
